A study of Mus musculus with 11 samples.

Results

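A set of 9 genes of the interferon signalling route were followed across the fetal livers: the type I interferon receptor chains Ifnar1 and Ifnar2, the ligand-binding chain of the type II receptor Ifngr1, the signal transducer Stat2, and the interferon regulatory factors (IRFs) Irf9, Irf7, Irf1, Irf3 and Irf8. They were taken by name, as the 9 of 52636 rows of each count table whose Ensembl identifier carries these symbols in the annotation of GRCm38, and all 9 passed the filter on low counts that 17243 genes passed. The series holds 11 untreated livers at embryonic day E15.5 on a C57BL/6N background: 3 WT, 2 Tnfr1-/-, 3 Casp8-/- Mlkl-/- and 3 Casp8-/- Tnfr1-/-. Tnfr1-/- animals lack the TNF receptor TNFR1, and both double mutants lack caspase-8, the protease that holds necroptosis in check; Casp8-/- Mlkl-/- livers also lack MLKL, the membrane-damaging last protein of necroptosis, whereas Casp8-/- Tnfr1-/- livers retain it. All alleles are constitutive, so every cell of the embryo carries them. Casp8-/- Mlkl-/- and Casp8-/- Tnfr1-/- livers differ at 2 loci, and the share of Mlkl and that of Tnfr1 in a difference between them cannot be told apart.

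Type I interferons bind the IFNAR1 and IFNAR2 chains, whose kinases TYK2 and JAK1 phosphorylate STAT proteins, STAT2 among them. STAT2 and IRF9 are parts of ISGF3, a complex that binds interferon-stimulated response elements (ISREs) in DNA, whereas the response to interferon-gamma runs through GAS elements. IRF3 is a latent factor that nucleic acid and Toll-like receptor pathways activate by phosphorylation, IRF7 extends type I interferon production, IRF1 responds to interferon-gamma and inflammatory cytokines, and IRF8 is a factor of the monocyte, macrophage and dendritic lineages. Fetal liver at this age is a blood-forming organ in which erythroid cells, hepatoblasts and myeloid cells are measured together, so that the number of cells of a type and the RNA per cell cannot be told apart here.

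The upstream sequences show which members carry the letters these complexes are known for. The 250 bases before the RefSeq start (GRCm38.p6) were searched on both strands for the ISRE core GAAA NN GAAA, found in 2.98% of 32851 such windows of the table, and for the GAS letters TTCNNNGAA, found in 7.02%. All 9 members had a window, and Irf9, Irf1 and Irf8, with more than one RefSeq start, had 2 each. The ISRE letters occurred in Stat2 alone among them, 222 to 213 bases before the start, and the GAS letters in Ifnar2 and in the first windows of Irf1 and Irf8, whose second windows held no match. Both Irf9 windows lie inside the gene span of the GENCODE annotation used for positions, as the second windows of Irf1 and Irf8 do, so the sequence before the Irf9 span was not searched. The Irf7 window overlaps its gene's span in part. Stat2 and Irf1 are shown as members that rose and hold a match, Irf8 as one that holds 2 matches and did not pass the test, and Irf7 as the member with the largest rise and no match in this window. Capitals mark the matched letters, and each run reads 5′ to 3′ along the gene's strand.
Stat2 (chr10:128270248-128270497, + strand): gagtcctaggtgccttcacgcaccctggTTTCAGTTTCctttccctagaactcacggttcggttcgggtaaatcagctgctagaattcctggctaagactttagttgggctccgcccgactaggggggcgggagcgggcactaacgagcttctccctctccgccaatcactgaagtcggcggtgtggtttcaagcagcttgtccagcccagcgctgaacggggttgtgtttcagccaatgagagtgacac
Irf1 (chr11:53769764-53770013, + strand): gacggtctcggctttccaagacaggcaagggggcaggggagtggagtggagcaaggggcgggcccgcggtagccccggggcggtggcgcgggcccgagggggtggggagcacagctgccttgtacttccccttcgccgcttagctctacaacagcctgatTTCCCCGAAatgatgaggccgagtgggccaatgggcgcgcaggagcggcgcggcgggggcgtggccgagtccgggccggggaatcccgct
Irf8 (chr8:120736108-120736357, + strand): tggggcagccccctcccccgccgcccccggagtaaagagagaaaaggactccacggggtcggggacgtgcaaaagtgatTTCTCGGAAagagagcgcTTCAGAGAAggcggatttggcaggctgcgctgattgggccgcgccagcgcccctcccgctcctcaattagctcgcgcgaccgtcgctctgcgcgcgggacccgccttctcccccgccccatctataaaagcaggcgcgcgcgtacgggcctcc
Irf7 (chr7:141266425-141266674, − strand): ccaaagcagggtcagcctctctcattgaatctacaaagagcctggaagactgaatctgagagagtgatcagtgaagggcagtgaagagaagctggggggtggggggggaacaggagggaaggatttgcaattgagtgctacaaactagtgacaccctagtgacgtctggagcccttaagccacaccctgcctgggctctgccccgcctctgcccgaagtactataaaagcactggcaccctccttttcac
A match is a description of letters and not a bound site, and a window without one says only that these letters are not in it.

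The total of counted reads per liver lay between 23129212 and 35819339. Casp8-/- Tnfr1-/- replicate 3 and Casp8-/- Mlkl-/- replicate 1 stood apart. They had TMM scaling factors of 0.758 and 0.812 against 1.01 to 1.09 in the others, and a larger part of their reads came from the top 10 genes, 22.5% and 24% against 11.7% to 15.2%. CPM here are counts per 1000000 reads, with each liver's total over the genes that passed the filter multiplied by its TMM factor. The summed level of 9 striated muscle genes was 1714 CPM in Casp8-/- Tnfr1-/- replicate 3. It was at most 24.3 CPM in the 8 livers of the other genotypes, called control livers here. That of 8 hepatocyte genes reached 201619 CPM in Casp8-/- Mlkl-/- replicate 1 against 57645 to 69572 CPM in WT. Erythroid and hepatocyte markers were abundant in all 11 livers. Of the targeted genes, Casp8 read 27.7 to 33.6 CPM in WT, 7.82 to 10.2 CPM in Casp8-/- Mlkl-/- and 11.5 to 21.9 CPM in Casp8-/- Tnfr1-/- livers. Mlkl read 4.23 to 4.46 CPM in WT, 0.730 to 1.22 CPM in Casp8-/- Mlkl-/- and 13.3 to 24.6 CPM in Casp8-/- Tnfr1-/- livers, where it rose (log2 fold change from WT 2.02, edgeR adjusted p = 0.00328). Tnfrsf1a, which encodes TNFR1, read 49.8 and 50.5 CPM in Tnfr1-/- livers against 47.1 to 53.4 CPM in WT. Which exons that allele lacks is not given in the sources used here, so this total over exons does not check the Tnfr1 label. In the other genotype labelled as lacking it, Casp8-/- Tnfr1-/-, Tnfrsf1a read 76.9, 76.0 and 425 CPM, above every WT liver and highest in replicate 3 (log2 difference from WT 1.91, edgeR adjusted p = 0.0896).

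Of the 9 members, Irf7, Irf9, Stat2 and Irf1 rose in Casp8-/- Tnfr1-/- livers relative to WT, and none fell. The 4 fitted changes lay between 3.69-fold and 25.4-fold. The receptor chains, Irf3 and Irf8 had fitted changes of at most 0.57 on the log2 scale and did not pass the test. Of all 17243 genes, 5.10% were higher in this comparison, 0.702% lower and 5.80% called in either direction. Against Tnfr1-/- livers the same 4 members were higher, where 2.05% of all genes were, and against Casp8-/- Mlkl-/- livers 3 were higher (Irf7, Irf9 and Stat2), where 1.54% were. The same 3 were higher in all 3 comparisons, as were 1.30% of genes. The test throughout is edgeR's quasi-likelihood test over all 4 genotypes with Benjamini-Hochberg adjustment over all genes tested and a threshold of 0.05, and the 3 comparisons share the Casp8-/- Tnfr1-/- livers. The median log2 fold change of the 9 members against WT was 0.57, where that of all genes tested was -0.0015. For 4 members every Casp8-/- Tnfr1-/- liver exceeded all 8 control livers, as did 7.43% of all genes, and for none did every one lie below them, as did 3.32%. When all 4 genotypes were compared at once the same 4 members differed, where 3.60% of genes did (edgeR adjusted p from 8.29e-05 for Irf7 to 0.0201 for Irf1).

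**Figure D1:**
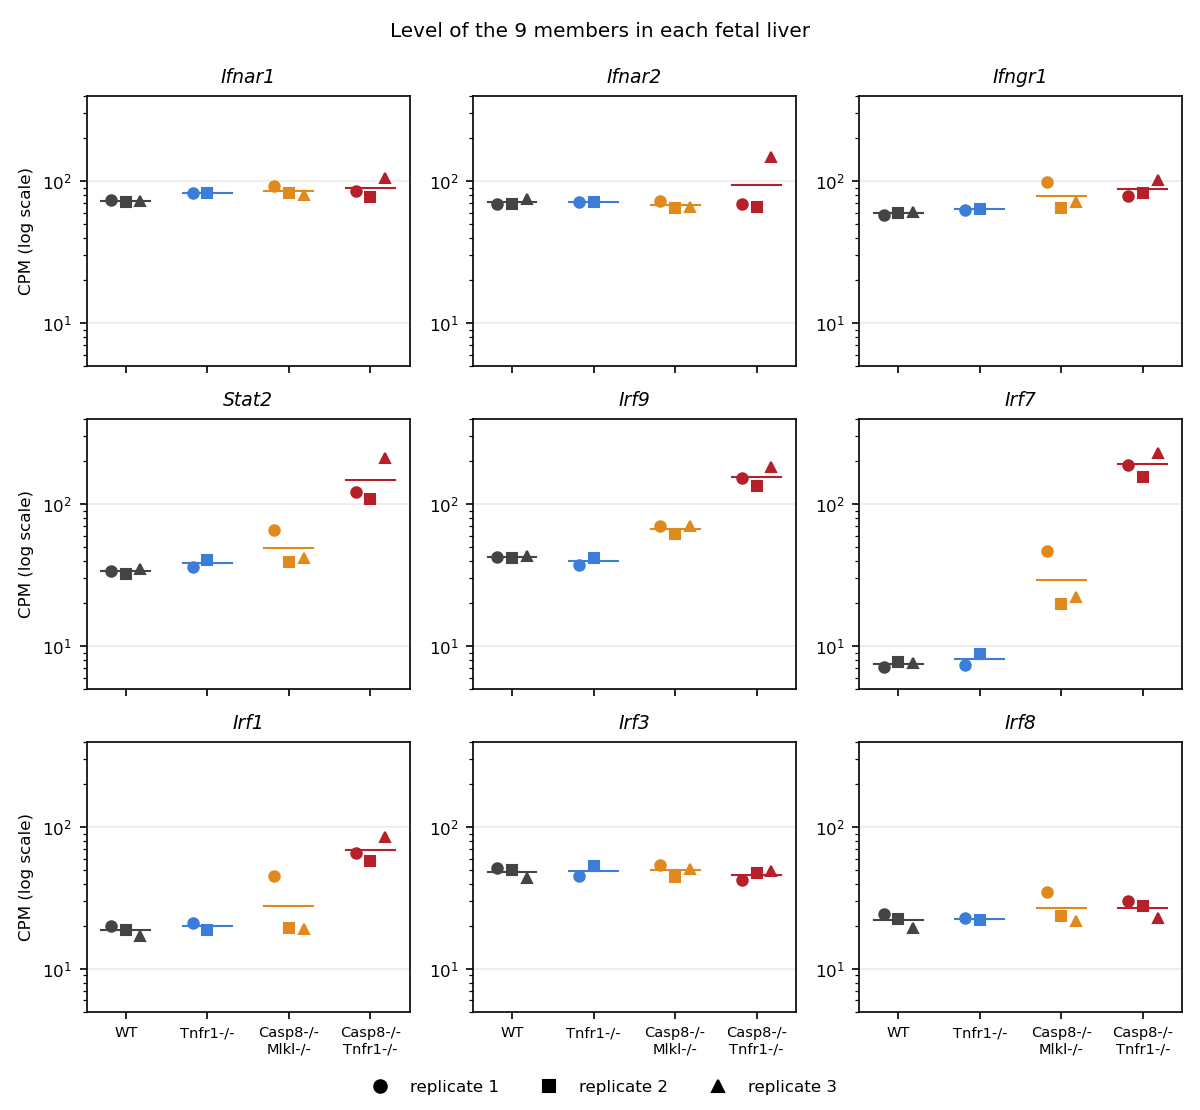
Level of each member in CPM on a log axis, in each of the 11 livers, by genotype; the marker shape gives the replicate and the bar the mean of the genotype. In the panels of Stat2, Irf9, Irf7 and Irf1 the 3 Casp8-/- Tnfr1-/- livers lie above all 8 other livers, and Irf7 and Irf9 are also higher in every Casp8-/- Mlkl-/- liver than in the WT and Tnfr1-/- livers.

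The genes of both type I receptor chains lie on chromosome 16. Ifnar1 (ENSMUSG00000022967, chr16:91485238-91507441 in the GENCODE release M21 annotation of GRCm38) read 73.9, 70.7 and 72.1 CPM in WT, 81.9 and 81.9 in Tnfr1-/-, 92.0, 82.6 and 80.0 in Casp8-/- Mlkl-/- and 85.8, 76.9 and 105 in Casp8-/- Tnfr1-/- livers. Each mutant liver lay above the WT livers, and the 3 mutant genotypes overlapped. In Casp8-/- Tnfr1-/- livers the log2 difference from WT was 0.31 (95% interval 0.0025 to 0.61, adjusted p = 0.201 by edgeR). Ifnar2 (ENSMUSG00000022971, chr16:91372783-91405589) read 69.4, 69.1 and 74.5 CPM in WT, 71.5 and 71.1 in Tnfr1-/-, 72.4, 64.9 and 65.4 in Casp8-/- Mlkl-/- and 68.9, 65.7 and 147 in Casp8-/- Tnfr1-/- livers. Replicate 3 alone was high, and the other Casp8-/- Tnfr1-/- livers lay at or below the WT values. The log2 difference from WT was 0.40 (95% interval -0.20 to 1.0, adjusted p = 0.367 by edgeR) and -0.070 without replicate 3, the liver with the muscle transcripts. Of the exon bases of Ifnar2, 9.46% also belong to the same-strand gene Gm21970, so its reads are to that extent uncertain.

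Ifngr1 (ENSMUSG00000020009, chr10:19591949-19610229), the chain that binds interferon-gamma, read 58.0, 59.4 and 60.6 CPM in WT, 63.0 and 63.1 in Tnfr1-/-, 98.1, 64.6 and 71.4 in Casp8-/- Mlkl-/- and 79.0, 83.0 and 103 in Casp8-/- Tnfr1-/- livers. Every caspase-8-deficient liver exceeded every WT and Tnfr1-/- liver, but the double mutants overlapped each other. The log2 difference of Casp8-/- Tnfr1-/- from WT was 0.57 (95% interval 0.19 to 0.95), with an adjusted p of 0.0812 by edgeR. It passed in 4 of 22 alternative analyses, with adjusted p values from 8.85e-05 to 0.220 over all of them.

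Stat2 (ENSMUSG00000040033, chr10:128270559-128292849) was the only STAT among the members. It read 34.0, 32.2 and 34.9 CPM in WT, 35.8 and 40.5 in Tnfr1-/-, 65.9, 39.2 and 42.0 in Casp8-/- Mlkl-/- and 121, 109 and 213 in Casp8-/- Tnfr1-/- livers. The lowest Casp8-/- Tnfr1-/- liver was 1.65 times the highest control, and replicate 3 was the highest. The log2 fold change from WT was 2.13 ± 0.28 (SE, 3 livers against 3, edgeR adjusted p = 0.00264), that from Tnfr1-/- 1.95 (adjusted p = 0.0150) and that from Casp8-/- Mlkl-/- 1.59 (adjusted p = 0.0216). Without Casp8-/- Tnfr1-/- replicate 3 the change from WT was 1.78, with an adjusted p of 7.54e-04 by edgeR. The call against Tnfr1-/- was lost without either Tnfr1-/- liver (adjusted p = 0.279 without replicate 1 and 0.185 without replicate 2), and that against Casp8-/- Mlkl-/- without replicate 2 (0.113) or 3 (0.125) of that genotype.

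Irf9 (ENSMUSG00000002325, chr14:55603571-55610030), the DNA-binding part of ISGF3, read 42.3, 41.5 and 42.7 CPM in WT, 37.2 and 41.8 in Tnfr1-/-, 70.3, 61.3 and 69.5 in Casp8-/- Mlkl-/- and 153, 133 and 181 in Casp8-/- Tnfr1-/- livers. The genotypes formed 3 levels with no overlap between them, WT with Tnfr1-/- lowest, Casp8-/- Mlkl-/- between and Casp8-/- Tnfr1-/- highest. The log2 fold change was 1.88 ± 0.14 (SE) against WT (edgeR adjusted p = 1.02e-04), 1.98 against Tnfr1-/- (adjusted p = 3.44e-04) and 1.22 against Casp8-/- Mlkl-/- (adjusted p = 0.00269). Of its exon bases 2.28% are shared with the same-strand gene Rnf31.

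Irf7 (ENSMUSG00000025498, chr7:141262706-141266481, minus strand) had the widest range of the 9. It read 7.14, 7.71 and 7.61 CPM in WT, 7.30 and 8.81 in Tnfr1-/-, 46.4, 19.6 and 22.1 in Casp8-/- Mlkl-/- and 188, 156 and 227 in Casp8-/- Tnfr1-/- livers. The same 3 levels appeared as for Irf9, with Casp8-/- Mlkl-/- replicate 1 above its group, and the lowest Casp8-/- Tnfr1-/- liver was 3.36 times the highest control. The fold change was 25.4 against WT (95% interval 14.9 to 43.2, edgeR adjusted p = 9.08e-05), 23.6 against Tnfr1-/- (12.6 to 44.4, adjusted p = 5.01e-04) and 6.48 against Casp8-/- Mlkl-/- (4.0 to 10.5, adjusted p = 0.00300). The calls of Irf7, Irf9 and Stat2 against WT held in all 22 alternatives.

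Irf1 (ENSMUSG00000018899, chr11:53770014-53778374) read 20.2, 18.9 and 17.0 CPM in WT, 21.1 and 18.8 in Tnfr1-/-, 45.4, 19.3 and 19.1 in Casp8-/- Mlkl-/- and 65.7, 57.3 and 85.1 in Casp8-/- Tnfr1-/- livers. Casp8-/- Mlkl-/- replicate 1 was the only control liver above 21.1 CPM. The log2 fold change was 1.89 ± 0.33 (SE) against WT (edgeR adjusted p = 0.00966) and 1.80 against Tnfr1-/- (adjusted p = 0.0399). Against Casp8-/- Mlkl-/- it was 1.31 and missed the threshold (adjusted p = 0.0826), and without replicate 1 of that genotype it was 1.85 (adjusted p = 0.00165 by edgeR). The call against WT was lost without WT replicate 2 (adjusted p = 0.0545) or 3 (0.0622), and that against Tnfr1-/- in 7 of the 11 fits that each leave out 1 liver, namely without any of the 3 WT livers (0.0727 to 0.0766), without Tnfr1-/- replicate 1 (0.390) or 2 (0.437) and without Casp8-/- Tnfr1-/- replicate 1 (0.0553) or 2 (0.0522).

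Irf3 (ENSMUSG00000003184, chr7:44997648-45002848) was the flattest of the members. It read 51.4, 49.7 and 43.4 CPM in WT, 45.3 and 53.3 in Tnfr1-/-, 53.6, 44.5 and 50.7 in Casp8-/- Mlkl-/- and 42.1, 47.8 and 48.8 in Casp8-/- Tnfr1-/- livers. All 4 genotypes overlapped, and the log2 difference of Casp8-/- Tnfr1-/- from WT was -0.060 with a 95% interval of -0.36 to 0.24 (edgeR adjusted p = 0.792), which leaves room for a fold change between 0.778 and 1.18.

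Irf8 (ENSMUSG00000041515, chr8:120736358-120756694) read 24.5, 22.5 and 19.3 CPM in WT, 22.9 and 22.2 in Tnfr1-/-, 34.7, 23.7 and 21.7 in Casp8-/- Mlkl-/- and 30.3, 27.6 and 22.7 in Casp8-/- Tnfr1-/- livers. The genotypes overlapped, and the log2 difference from WT was 0.28 (95% interval -0.16 to 0.73, edgeR adjusted p = 0.393). The antisense neighbours Phrf1, Gm17334 and Bcl2l12 overlap 1.19%, 3.40% and 2.56% of the exon bases of Irf7, Irf1 and Irf3, and since the use of strand in the counting is not given in the sources used here, reads there cannot be told apart.

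**Figure D2:**
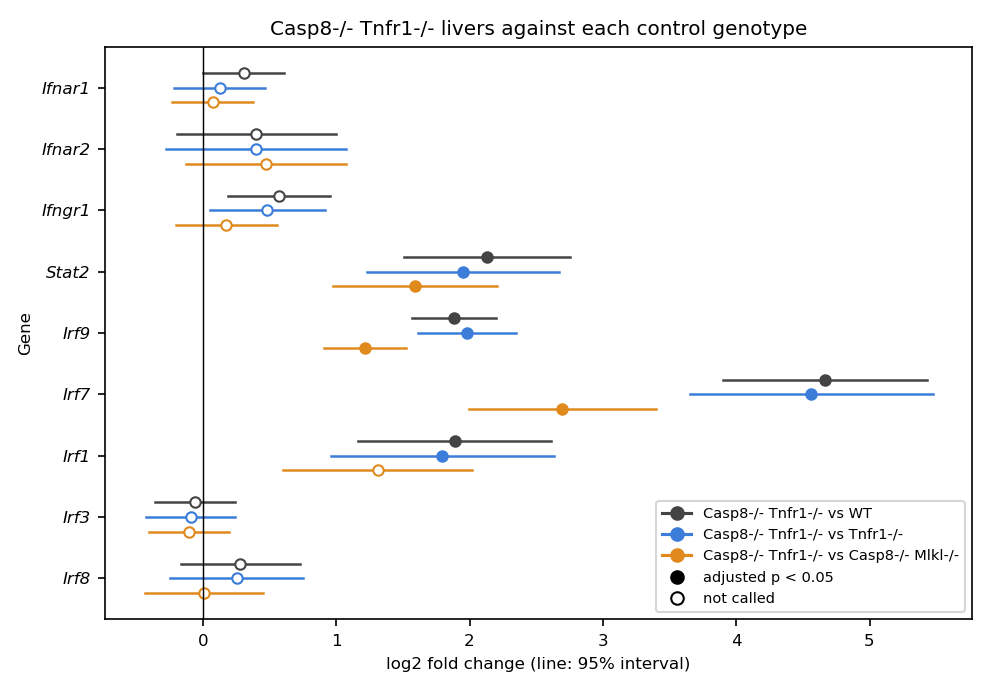
Log2 fold change of each member in Casp8-/- Tnfr1-/- livers against WT, Tnfr1-/- and Casp8-/- Mlkl-/- livers, with 95% intervals from the edgeR fit; filled points have an adjusted p under 0.05. The intervals of Stat2, Irf9, Irf7 and Irf1 lie above 0 in all 3 comparisons, and those of Ifnar2, Irf3 and Irf8 include 0 in all 3.

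The livers that stood apart widened the spread. With both left out, a choice made after seeing the data, 7 members were called against WT, where 31.3% of all genes then were. The rises remained of unequal size: 4.54 on the log2 scale for Irf7, 1.79 for Stat2, 1.78 for Irf9 and 1.73 for Irf1, against 0.46 for Ifngr1, 0.40 for Irf8 and 0.19 for Ifnar1. Ifnar2 (-0.061) and Irf3 (-0.086) were the members not called. Against Tnfr1-/- livers 6 members were then called (23.2% of genes) and against Casp8-/- Mlkl-/- livers also 6 (18.1% of genes), in both cases the same 7 less Ifnar1. Irf7 and Irf9 were then also higher in Casp8-/- Mlkl-/- livers than in WT (6.40% of genes called) and than in Tnfr1-/- (3.49% of genes). A miss of the threshold by Ifnar1, Ifngr1 or Irf8 in the full set therefore does not show that its level was the same.

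The Casp8-/- Mlkl-/- livers lay between the others for some members. No member passed edgeR's test against WT, where 1 gene of 17243 did (0.0058%), although 3 members, Irf7, Irf9 and Ifngr1, had an unadjusted p under 0.05, as had 5.63% of genes. Irf7, Irf9 and Ifngr1 were also the members for which every Casp8-/- Mlkl-/- liver exceeded all 5 WT and Tnfr1-/- livers, as did 5.61% of genes, whereas none lay below them, as 3.03% did. The log2 difference from WT was 1.97 for Irf7 (95% interval 1.28 to 2.66, edgeR adjusted p = 0.112) and 0.67 for Irf9 (0.36 to 0.98, adjusted p = 0.350). DESeq2's test (90 of 16910 genes called) and limma-voom with quality weights (1042 of 17243) each called both. Without replicate 1, the liver rich in hepatocyte transcripts, the differences were 1.48 and 0.63, and neither passed edgeR's test (adjusted p = 0.0828 and 0.584). Against Tnfr1-/- livers the count was again 0 of 9 by edgeR (0.0058% of genes) with 2 at an unadjusted p under 0.05 (2.01% of genes), and DESeq2 called 2.

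Loss of TNFR1 alone left the members close to WT. The fitted log2 differences ranged from -0.095 for Irf9 to 0.18 for Ifnar1, and edgeR called 0 of 9 members and 0 of 17243 genes (0%), with no member and 1.08% of genes at an unadjusted p under 0.05. DESeq2 and limma-voom also called 0 members. With 2 Tnfr1-/- livers the 95% intervals are wide, from -0.65 to 0.86 for Irf7.

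Casp8-/- Tnfr1-/- minus Tnfr1-/- gives the effect of caspase-8 loss among livers lacking TNFR1. It was set against Casp8-/- Mlkl-/- minus WT, the effect of losing caspase-8 and MLKL together. The series has no Mlkl-/- livers, so the latter is not an effect of caspase-8 loss alone. In this contrast the loss of Mlkl and the presence of Tnfr1 cannot be told apart. The difference of the log2 effects was 2.59 for Irf7 (adjusted p = 0.0988 by edgeR), 1.31 for Irf9 (0.0521), 1.41 for Stat2 (0.482) and 1.22 for Irf1 (0.692). Thus 0 of 9 members passed, where 0.162% of all genes did, although these 4 had an unadjusted p under 0.05, as had 6.76% of genes. DESeq2 called 2 of them, Irf7 and Irf9, and without both livers that stood apart edgeR called all 4, where 11% of genes passed. That one double mutant passed against WT and the other did not is therefore not a tested difference for these members, apart from the direct comparison given above.

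Levels can be set beside each other between genes only per length, here as CPM per kilobase of the exon length in the tables. In WT livers Ifngr1 was highest at 27.5 to 28.7 CPM per kilobase, followed by Ifnar2 (21.8 to 23.5) and Irf3 (19.8 to 23.5), whose ranges overlapped, then Ifnar1 (18.1 to 18.9), Irf9 (13.4 to 13.8) and Stat2 (7.31 to 7.95). Irf8 (5.63 to 7.12) and Irf1 (5.09 to 6.05) overlapped, and Irf7 was lowest at 2.99 to 3.22 CPM per kilobase. In each Casp8-/- Tnfr1-/- liver this order was turned, with Irf7 first (65.2 to 94.9), then Irf9 (43.0 to 58.3), Ifngr1 (37.4 to 48.6) and Stat2 (24.7 to 48.4), the last 3 with overlapping ranges. Ifnar2, Ifnar1, Irf1 and Irf3 overlapped between 17.2 and 46.3 CPM per kilobase, and Irf8 was lowest at 6.6 to 8.81. Irf7 was thus last of 9 in all 5 WT and Tnfr1-/- livers, sixth or seventh in Casp8-/- Mlkl-/- livers and first in Casp8-/- Tnfr1-/- livers.

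Among the 5 IRF members, the balance moved from Irf3 to Irf7. Irf3 made up 41.8% to 44.1% of their summed CPM per kilobase in WT, 42.5% to 45.4% in Tnfr1-/-, 27.1% to 34.7% in Casp8-/- Mlkl-/- and 10.7% to 14.1% in Casp8-/- Tnfr1-/- livers. Irf7 made up 5.60% to 6.70%, 6.27% to 6.87%, 13.4% to 21.5% and 42.0% to 45.7% in the same order. The sum itself was 47.5 to 53.3 CPM per kilobase in WT and 155 to 208 in Casp8-/- Tnfr1-/- livers, so that the lower share of Irf3 stood beside a level that did not pass the test for a change. Irf9 kept 27.7% to 28.1% in Casp8-/- Tnfr1-/- livers, within its WT range of 25.6% to 29.0%.

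**Figure D3:**
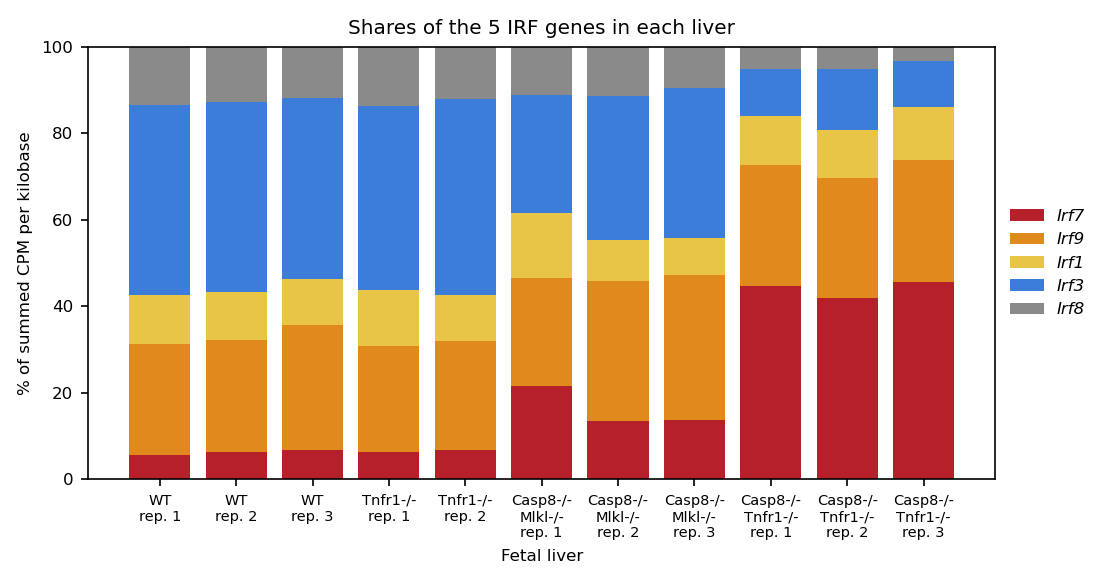
Share of each of the 5 IRF members in their summed CPM per kilobase, 1 bar per liver, in percent from 0 to 100. The Irf7 share is under 7% in the 5 WT and Tnfr1-/- livers, 13.4% to 21.5% in the Casp8-/- Mlkl-/- livers and 42.0% to 45.7% in the Casp8-/- Tnfr1-/- livers.

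Ratios within a liver do not depend on how the libraries were scaled. The ratio of Irf7 to Irf3 per kilobase was 4.08, 2.99 and 4.26 in the Casp8-/- Tnfr1-/- livers and 0.127 to 0.792 in the 8 control livers, a mean difference of 4.01 on the log2 scale. The ratio of Stat2 to Ifnar1 was 1.26 to 1.79 against 0.389 to 0.637 (difference 1.67), and that of Irf9 to Ifnar2 1.26 to 2.27 against 0.532 to 1.09 (difference 1.32). Each ratio sets a member that rose over one that did not pass the test, and the pairs were chosen with those levels known, so the ratios are given as a description with no test.

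**Figure D4:**
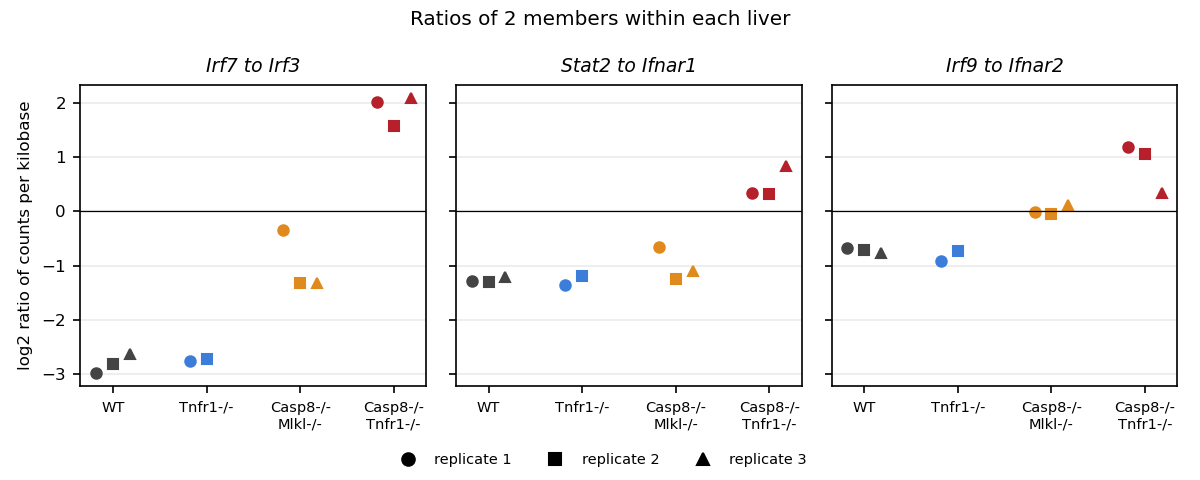
Log2 ratio of counts per kilobase between 2 members in each of the 11 livers, by genotype, with the marker shape giving the replicate and a line at 0 where both are equal. In all 3 panels the Casp8-/- Tnfr1-/- livers lie above the 8 others, and the Irf7 to Irf3 ratio is above 0 in them alone.

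The genes whose pattern over the 11 livers came nearest to each called member were found by the root mean square difference of log2 CPM after each gene was set to 0 at its WT mean. For Irf7 these were Rtp4, a receptor transporter protein (0.21), and the oligoadenylate synthetases Oas1a (0.33) and Oas2 (0.39). Rtp4 averaged 5.77 CPM over the control and 71.2 CPM over the Casp8-/- Tnfr1-/- livers. For Irf9 they were the RNA-binding protein gene Lin28a (0.10), the RNA-editing enzyme gene Adar (0.16) and the adhesion molecule gene Icam1 (0.20), for Stat2 Parp10 (0.13), the leukocyte integrin chain Itgb2 (0.16) and the cytokine receptor chain Csf2rb (0.18), and for Irf1 they included the phagocyte oxidase subunit Cybb (0.17) and the cytokine receptor chain Il6st (0.19). Stat2 and Irf1 differed from each other by 0.23, and Irf7 from Stat2 by 1.53 on this scale, so that Irf7 did not share the size of the others' change.

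The rest of the pathway was described by a list of 52 genes, of which 32 passed the filter. Against WT 6 of the 32 were higher in Casp8-/- Tnfr1-/- livers and 0 lower, with a median log2 fold change of 0.60, where 5.10% of all genes were higher, 0.702% were lower and the median was -0.0015. Against Tnfr1-/- and against Casp8-/- Mlkl-/- only 1 of the 32, Usp18, was higher by edgeR, where 2.05% and 1.54% of all genes were, and 0 were lower. By role, 2 of 3 further receptor chains, 0 of 4 kinases, 1 of 5 STATs, 0 of 4 IRFs, 0 of 3 IRF2-binding proteins and 3 of 13 restraining genes were higher than in WT. With 5.10% of all genes higher, groups this small can hold no call without differing from other genes, and nothing is read from the zeros.

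Stat3, which transmits interleukin signals, read 110 to 124 CPM in WT and 187, 192 and 324 CPM in Casp8-/- Tnfr1-/- livers, with replicate 3 the highest. It was 0.99 higher than in WT on the log2 scale (adjusted p = 0.0303 by edgeR), a call lost without any 1 WT or Tnfr1-/- liver (adjusted p from 0.0569 to 0.135).

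None of the 4 kinases passed the test against WT in the full set of livers. Jak1 read 210 to 224 CPM in WT and 249, 234 and 384 CPM in Casp8-/- Tnfr1-/- livers (log2 difference 0.42, 95% interval 0.0074 to 0.83, edgeR adjusted p = 0.197). Tyk2 read 34.2 to 37.6 CPM in WT and 40.6, 44.6 and 30.9 CPM in the mutant (0.12, -0.22 to 0.46, adjusted p = 0.623). Jak2, which serves the type II receptor, read 162 to 194 CPM and 148, 134 and 241 CPM (-0.026, -0.61 to 0.55, adjusted p = 0.957). Jak3, the kinase of lymphocyte cytokine receptors and added here after its values were seen, read 18.3 to 20.4 CPM in WT, at most 26.6 CPM in any control liver and 34.0, 38.7 and 178 CPM in Casp8-/- Tnfr1-/- livers. All 3 lay above the controls, and the log2 difference from WT was 2.09 (95% interval 0.88 to 3.29, edgeR adjusted p = 0.0530). Without replicate 3 it was 0.90 with an adjusted p of 0.00134 by edgeR, and 8 of 22 alternatives called it. In each of the 4 kinases replicate 3 lay away from the other mutant livers, downward for Tyk2 and upward for the others.

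Of the receptor chains, Ifngr2, the second chain of the type II receptor, read 30.7 to 32.8 CPM in WT and 53.8, 53.4 and 64.7 CPM in Casp8-/- Tnfr1-/- livers (log2 fold change 0.85, edgeR adjusted p = 0.0262), and the call was lost without any 1 WT or Tnfr1-/- liver (0.0562 to 0.120). Ifnlr1, the chain specific to type III interferon, read 0.552 to 1.27 CPM in WT and 6.16, 6.23 and 18.6 CPM in the mutant (3.55, adjusted p = 0.0196 by edgeR), a call lost without any 1 WT liver (0.0624 to 0.109). Without replicate 3 of the mutant the log2 fold change was 2.83 (adjusted p = 0.0219 by edgeR).

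Among the genes that restrain the pathway, Usp18, which blocks signalling at IFNAR2 and removes ISG15 from proteins, rose most. It read 6.15, 7.63 and 5.25 CPM in WT, 4.65 and 6.91 in Tnfr1-/-, 19.4, 9.21 and 10.7 in Casp8-/- Mlkl-/- and 99.5, 93.5 and 179 in Casp8-/- Tnfr1-/- livers, with a log2 fold change from WT of 4.29 (edgeR adjusted p = 2.94e-04). Its call against Tnfr1-/- (4.42, adjusted p = 0.00127 by edgeR) was lost without Tnfr1-/- replicate 1 (0.0509). Socs3, an inhibitor of cytokine receptor signalling, read 19.8 to 22.5 CPM in WT and 41.9, 46.8 and 137 CPM in the mutant (1.82, edgeR adjusted p = 0.0266). Without replicate 3 of the mutant its change from WT was 1.06, and the call was lost without any 1 WT liver or Tnfr1-/- replicate 1 (0.0532 to 0.125). The phosphatase gene Ptpn6 was 1.12 higher on the log2 scale (adjusted p = 0.0126 by edgeR), lost without WT replicate 2 (0.0643) or 3 (0.0797). Socs1, the main inhibitor of JAK kinases after interferon, stayed under 4 CPM in every liver and missed the threshold against WT (2.10, adjusted p = 0.0626 by edgeR).

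None of the 20 interferon ligand genes passed the filter, and 16 had no read in any of the 11 livers. All 14 genes of the Ifna family, which encode interferon-alpha, were at 0, where 3 counts, the limit that a count of 0 allows, correspond to 0.0821 to 0.171 CPM per liver. Over all 11 livers together Ifnb1 had 3 reads, Ifng 9, Ifnk 2 and Ifnl2 1, and no ligand had more than 3 reads in 1 liver. Between 6.45% and 67.4% of the 50-base stretches of an Ifna gene also occur in other genes, and reads that match several places were not counted. At this depth a ligand transcript was therefore not detectable as different between genotypes. For the 9 members the shared stretches came to at most 1.82%, apart from 7.89% for Ifnar2.

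**Figure D5:**
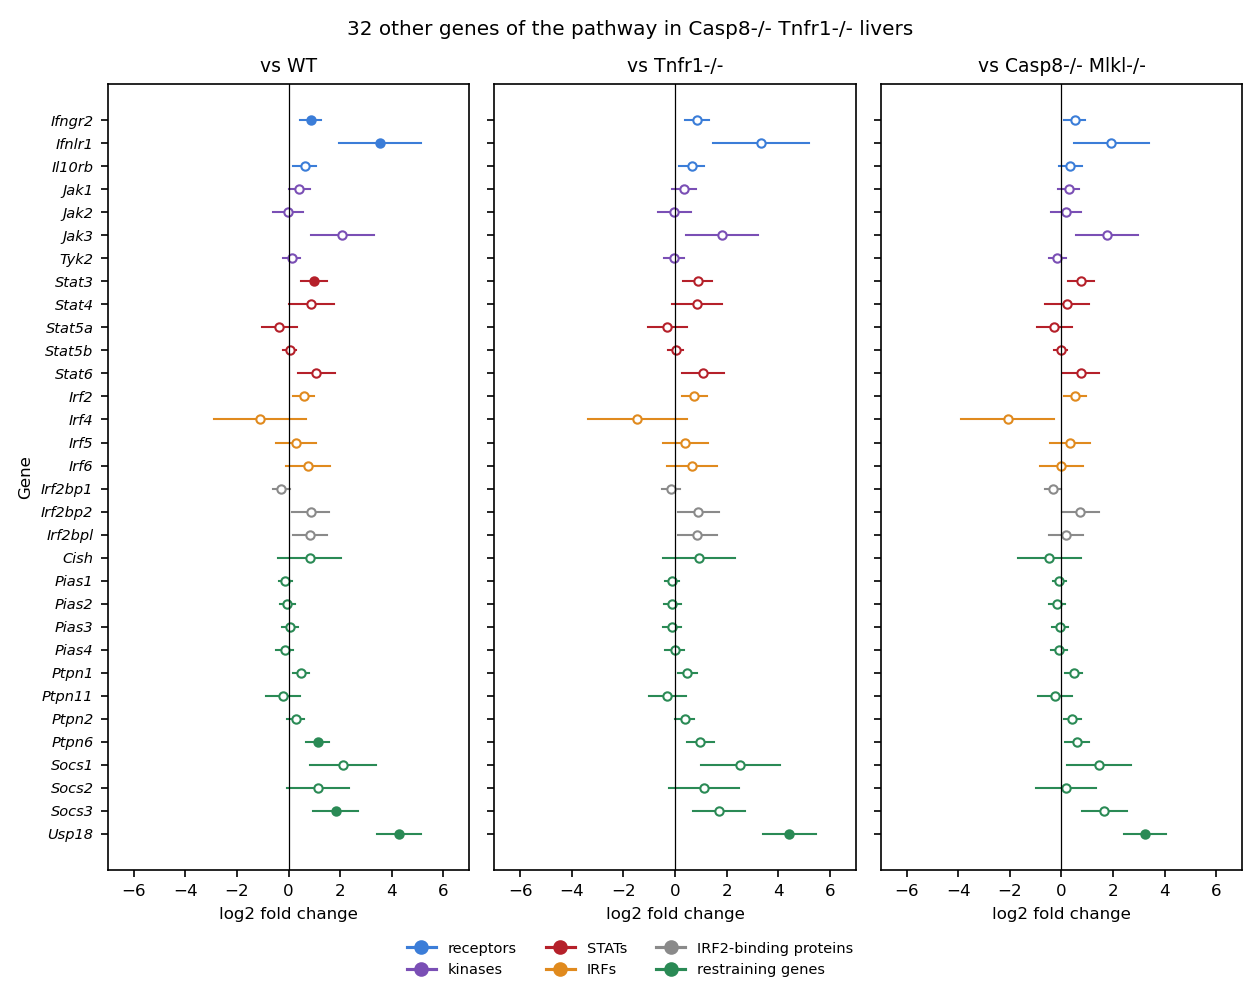
Log2 fold change with its 95% interval of the 32 other pathway genes that passed the filter, in Casp8-/- Tnfr1-/- livers against each control genotype, coloured by role; filled points have an edgeR adjusted p under 0.05. In all, 6 points are filled against WT and that of Usp18 in all 3 panels, whereas the intervals of the kinases Jak2 and Tyk2 include 0 in each.

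Cell type markers moved in part with the members. Their counts below stand beside 7.43% of all genes above and 3.32% below all 8 control livers in every Casp8-/- Tnfr1-/- liver. The summed level of 10 neutrophil genes was 1127 to 1637 CPM in WT, 1355 to 1385 in Tnfr1-/-, 1309 to 3433 in Casp8-/- Mlkl-/- and 5279 to 14824 in Casp8-/- Tnfr1-/- livers. Of these genes 4 (S100a8, S100a9, Ltf and Ngp) were above all 8 control livers in every Casp8-/- Tnfr1-/- liver, whereas Mpo and Elane overlapped with the controls. The sum of 12 macrophage genes was 496 to 646 CPM in WT, 649 to 1611 in Casp8-/- Mlkl-/- and 299 to 480 in Casp8-/- Tnfr1-/- livers, with 1 gene above and 4 below all controls. Cd68, a lysosomal protein of macrophages, was the one above, at 40.7 to 47.8 CPM against at most 35.4 CPM. The 4 below were Adgre1 (13.1 to 40.2 CPM), Timd4 (1.77 to 9.88 CPM), Marco (13.4 to 28.8 CPM) and Cd5l (13.6 to 75.3 CPM). In WT these 4 read 46.3 to 57.4, 15.2 to 17.6, 49.1 to 71.9 and 127 to 162 CPM, in the same order. The Kupffer cell genes Vsig4 (0 to 0.0688 CPM) and Clec4f (0.114 to 1.16 CPM) were low in Casp8-/- Tnfr1-/- livers. In WT they read 0.922 to 1.5 and 10.5 to 13.7 CPM. Clec4f was also low in Casp8-/- Mlkl-/- replicates 2 and 3 (0.203 and 0.726 CPM), as was Vsig4 (0.0291 and 0.153 CPM). Other macrophage genes went the other way in that genotype. Every Casp8-/- Mlkl-/- liver exceeded all WT livers for Adgre1 (100 to 170 CPM), Timd4 (30.7 to 62.8 CPM) and Marco (90.7 to 240 CPM). Cd5l (91.2 to 318 CPM) overlapped with WT there. The 6 dendritic cell genes summed to 53.3 to 58.0 CPM in WT, 36.1 to 59.0 in Casp8-/- Mlkl-/- and 35.1 to 44.1 CPM in Casp8-/- Tnfr1-/- livers. Zbtb46 alone made up most of that sum, at 44.6 to 46.9 CPM in WT and 21.7 to 34.6 CPM in Casp8-/- Tnfr1-/- livers. Of the 6 genes, 2 (Flt3 and Siglech) were below all controls and 0 above. Clec9a (2.62 to 11.7 CPM against 2.22 to 4.61 CPM in WT) and Ccr9 overlapped with WT. Xcr1 was at 0 in all 3 Casp8-/- Tnfr1-/- livers and at no more than 3 counts in any other liver. The sum of 8 erythroid genes was 20690 to 23047 CPM in WT and 14669 to 43134 CPM in Casp8-/- Tnfr1-/- livers. Of 7 B-lineage genes, 0 were above and 1 was below all controls, and of 7 endothelial genes 0 were above and 0 below. The B-lineage sum was 14.6 to 16.2 CPM in Casp8-/- Tnfr1-/-, 19.2 to 32.8 in WT and 15.9 to 95.1 in Casp8-/- Mlkl-/- livers. The endothelial sum was 344 to 666 CPM in Casp8-/- Tnfr1-/- livers and 340 to 384 CPM in WT. Against WT alone, Pecam1, Lyve1 and Emcn lay above every liver, Tek below, and Kdr, Cdh5 and Stab2 overlapped. Irf8, a gene of macrophage and dendritic lineages, kept overlapping levels. The macrophage and dendritic sums were both lower than in WT, the dendritic one resting mostly on Zbtb46. The part of cell composition in the rises of Irf7, Irf9, Stat2 and Irf1 was not tested.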

How the data were processed

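RNA of E15.5 fetal livers was sequenced as single-end 50-base reads. The authors aligned them to GRCm38 with GSNAP (named in the submitters' processing notes, per the labels) and deposited, per liver and gene, a raw count of reads that mapped uniquely to its exons, not normalized. The exon length beside each count, which the authors deposited as a width in bases, was used for CPM per kilobase, and the RPKM values the authors deposited only to recover a read total per liver. Kit and sequencer differ between the study's methods (stranded, NovaSeq) and the labels (TruSeq RNA v2, HiSeq4000). The counting tool and its use of strand are not given in the sources used here.

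The filterByExpr rule (minimum count 10) left 17243 of 52636 genes, which were normalized by TMM, and fitted with genotype as the only factor by edgeR 4.0.16 (glmQLFit and glmQLFTest) in R 4.3.3; the study's methods use limma. Groups of 2 and 3 livers shared 1 estimate of the spread (common coefficient of variation 33.3%). Alternatives were DESeq2 1.42.0, limma-voom 3.58.1 with and without quality weights, other scalings and filters, 2-genotype fits, a replicate block and each liver left out; leaving out both livers with the lowest TMM factors was added after seeing the data. Ratios used an offset of 0.5 counts, and their permutation test is not given since the pairs were chosen with the levels known. The fits were tested on simulated data.

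Names and positions came from GENCODE release M21 (52403 genes matched), upstream sequences from RefSeq. The named genes are the 9 members, the genes of the pathway list called in any of the 6 comparisons of genotypes together with Jak1, Jak2, Tyk2, Ifngr2, Usp18, Socs1, Socs3 and Ifnb1, the 3 genes nearest in pattern to each called member, the targeted genes and the cell type markers, apart from a few results not reported here; Jak3 and the other ligands with reads were added once their values were known. The members and lists were chosen with earlier results of these data known. The labels do not say whether replicates come from separate litters, and p values measure the spread between these livers; no pair of livers was the same library (chi-square per degree of freedom at least 6.45). Limits on counts cover counting error only.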

Additional observations from a re-analysis of the deposited data

How the results depend on the processing

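Of 1377 values of members under 22 alternatives, 1239 kept their direction and side of the threshold, 55 gained and 22 lost a call, 61 changed sign or otherwise moved without a call, and none reversed a call. Counts of members called moved as follows, each beside the number of all genes called. Against WT, Casp8-/- Tnfr1-/- livers had 7 (5314 of 16958) with both livers of low TMM factor left out, and 4 (572 of 17243) under the replicate block against 4 (1000) without it. Against Tnfr1-/-, with 4 (374) in the analysis reported, they had 2 (189) under the replicate block, 1 (56 of 16780) with only the 2 genotypes fitted and 2 to 4 (30 to 883) with 1 liver left out. Against Casp8-/- Mlkl-/-, with 3 (285), they had 5 (2709) with quality weights, 0 (11 of 16353) with 2 genotypes and 6 (3067 of 16958) without both livers. For Casp8-/- Mlkl-/- against WT, with 0 (1), there were 1 (9) with library totals only, 2 (90 of 16910) by DESeq2, 2 (1042) with quality weights, 1 (14 of 29478) with no filter, 2 (1086 of 16958) without both livers and 0 to 1 (0 to 27) with 1 liver left out. Against Tnfr1-/-, with 0 (1), there were 2 (46 of 16575) by DESeq2, 2 (517) with quality weights and 2 (592 of 16958) without both livers. The contrast of caspase-8 loss among livers lacking TNFR1 with joint loss of caspase-8 and MLKL had 0 (28). It had 1 (41) with library totals only, 1 (31) with hemoglobin genes left out, 2 (181 of 16910) by DESeq2 and 4 (1935) with quality weights. It also had 1 (41 of 29478) with no filter and 1 (34 of 16327) with a mean of at least 10 counts. Without both livers it had 4 (1869 of 16958), and with 1 liver left out 0 to 3 (0 to 104). With 2 genotypes, fewer livers give the spread; otherwise the cause was not tested. Correlations of 15 pairs of livers with the same replicate number ranged from -0.30 to 0.27, and those of 30 other pairs from -0.28 to 0.31. In groups of 2 or 3 livers such correlations cannot decide whether livers of 1 number share a litter or batch. The numbers were not treated as pairs in the analysis reported. Under the replicate block Stat2 missed the threshold against Tnfr1-/- (edgeR adjusted p = 0.0530) and Casp8-/- Mlkl-/- (0.0571), and Irf1 against Tnfr1-/- (0.0718). With 2 genotypes, Irf9 (0.109) and Irf7 (0.0918) missed it against Casp8-/- Mlkl-/-. Jak2 in Casp8-/- Tnfr1-/- against Casp8-/- Mlkl-/- livers had a log2 difference of 0.16 (adjusted p = 0.766) and, without both livers, -0.34 (adjusted p = 0.0181 by edgeR). No interferon ligand had enough reads to be tested, and the cause was not tested.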
